A study of Mus musculus with 4 samples.

Results

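Immunoglobulin genes are described here in adult mouse kidney, library by library. The members are the genes of the heavy, kappa and lambda immunoglobulin loci, with Jchain and Mzb1, that had at least 10 reads summed over the 4 libraries of the study. They were chosen by gene symbol and by this sum of reads, a measured value, and 232 of the 397 genes with a matching symbol passed, out of 54232 genes measured. They comprised 106 heavy, 99 kappa and 3 lambda V segments, 4 heavy, 5 kappa and 1 lambda J segments, 8 heavy, 1 kappa and 3 lambda constant genes, Jchain and Mzb1. At the edge of the choice, Ighe and Ighv1-50 had 10 reads each and were members, whereas Ighv1-38 and Igkv4-78 had 9 reads each and were not. The 20 D segments, whose lengths ran from 10 to 29 bases, were all at 0 reads.

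The study sequenced poly(A) RNA from kidneys of mice aged 60 days, with 2 wild-type libraries (WT) and 2 libraries of mice carrying 1 LacZ allele of Tshz3, labelled Tshz3+/LacZ (HET). RNA was pooled for each library, from 3 kidneys a group by the labels. The sources used here give neither the strain and sex of the mice nor how the LacZ allele is built, nor whether both pools of a genotype came from different animals, so the p-values measure the spread between pools, which may be technical. The comparison asks which transcripts of the kidney differ between HET and WT mice.

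Antibody-producing cells assemble each immunoglobulin chain from gene segments. A heavy chain joins a V, a D and a J segment to a constant gene, a light chain joins a V and a J segment of the kappa or the lambda locus to its own constant gene, and the heavy constant gene sets the isotype (IgM, IgD, IgG, IgE or IgA). Naive B cells carry IgM and IgD on their surface, while plasma cells fill themselves with the RNA of a single secreted antibody, and IgA plasma cells are typical of mucosal tissues.

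The recovered reads numbered between 62631750 and 70792042 per library. Tshz3 was at 0.653 and 0.723 in WT replicates 1 and 2 and at 0.833 and 0.760 in HET replicates 1 and 2 (scaled TPM, a transcript level per exon length brought to a common scale between libraries), so the libraries labelled HET did not have less of it (log2 fold change 0.13, limma adjusted p = 0.790). All exons of Tshz3 enter that level, including any that the LacZ allele keeps. The pools also differed in sex-linked transcripts: Ddx3y, a Y-linked gene, was at 21.1, 16.2, 4.02 and 17.0, and Xist, made from the inactive X chromosome, at 18.1, 39.7, 60.5 and 57.7 scaled TPM in the same order. HET replicate 1, with the lowest Ddx3y, is also the library with the least immunoglobulin RNA, and the part of sex in the results below was not tested. The kidney markers Umod, the uromodulin gene of the thick ascending limb, and Slc34a1, a phosphate transporter gene of the proximal tubule, were at 1858 to 2730 and at 2003 to 2692 scaled TPM in the 4 libraries. The list of 10 kidney markers that holds both summed to 93036 and 49975 scaled TPM in WT replicates 1 and 2. In HET replicates 1 and 2 it summed to 36937 and 49693, so some other kidney markers were less even.

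The amount of immunoglobulin RNA varied several-fold between libraries, within each genotype. Members took 382 and 958 of every 1000000 reads in the WT libraries (replicate 1, then replicate 2, here and below), and 203 and 1093 in the HET libraries. The summed level of the constant genes was 639 and 1458 scaled TPM in the WT libraries and 280 and 1545 in the HET libraries. The V segments gave the same order, with 289 and 737 scaled TPM in WT and 165 and 792 in HET. HET replicate 1 was thus lowest and HET replicate 2 highest, with both WT libraries between them. The WT mean of the constant genes was 1048 ± 579 and the HET mean 913 ± 894 scaled TPM (SD, n = 2), a difference far smaller than the spread between pools. The constant genes were 5.51 times higher in HET replicate 2 than in HET replicate 1, and 2.28 times higher in WT replicate 2 than in WT replicate 1. In bulk RNA, more antibody-producing cells and more immunoglobulin RNA per cell cannot be told apart.

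IgA was the leading isotype in every library. Igha, the IgA constant gene (ENSMUSG00000095079, chromosome 12, 113254830 to 113260236, mm10), was at 156 and 333 scaled TPM in WT and at 63.2 and 243 in HET. It rested on 12177, 28594, 5078 and 22683 reads in the WT and then the HET libraries. Its share of the summed heavy constant level was 92.7% and 96.1% in WT and 84.0% and 56.0% in HET. Both HET libraries lay below both WT libraries in this share, but only HET replicate 2 was far from the rest. Counting error is small beside these gaps: as shares of reads, Igha had Wilson 95% intervals from 94.1% to 94.8% in WT replicate 1, from 96.8% to 97.2% in WT replicate 2, from 87.2% to 88.8% in HET replicate 1 and from 63.3% to 64.3% in HET replicate 2. These intervals cover counting error only, as reads need not be independent molecules. The log2 fold change of Igha between HET and WT was -0.88, with a standard error of 0.86 and a limma adjusted p = 0.728, and without HET replicate 1 it was 0.090.

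HET replicate 2 stood apart through its IgG, IgM and IgD genes. Ighg2c, 1 of 4 IgG constant genes measured (chromosome 12, 113285325 to 113288932), was at 1.03 scaled TPM in both WT libraries, at 1.08 in HET replicate 1 and at 62.8 in HET replicate 2, from 40, 44, 43 and 2914 reads. Ighg2b (113302965 to 113307933) was at 1.33 and 1.47 in WT and at 0.731 and 39.5 in HET, and Ighg1 (113325240 to 113330523) at 0.807 and 1.14 in WT and at 0.269 and 14.8 in HET. Ighg3 (113356224 to 113361232) was the rarest IgG gene, at 0.205 and 0.0618 in WT and at 0.0661 and 3.20 in HET. Each of the 4 IgG genes varied less than 5-fold among the other 3 libraries and was far higher in HET replicate 2 than in HET replicate 1 (58.4 times for Ighg2c, 54.1 for Ighg2b, 55.1 for Ighg1 and 48.4 for Ighg3). Summed, IgG took 2.0% and 1.07% of the heavy constant level in WT and 2.85% and 27.7% in HET.

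Ighm, the IgM gene (chromosome 12, 113418558 to 113422730), was at 8.38 and 8.98 scaled TPM in WT and at 9.54 and 60.6 in HET. The first 3 of these values are close together although Igha differed several-fold among the same libraries. Ighd, the IgD gene (113406604 to 113416324), whose RNA comes by splicing from the same primary transcript as IgM, was at 0.595 and 0.998 in WT and at 0.367 and 9.67 in HET. HET replicate 2 was again far above the other 3. The IgG genes summed to 0.403, 0.413 and 0.225 times the level of Ighm in WT replicates 1 and 2 and HET replicate 1, and to 1.99 times in HET replicate 2. Ighe, the IgE gene, was at 0 reads in 3 libraries and at 10 in HET replicate 2. A count of 0, taken as up to 3 reads in a library, allows a share of up to 0.0233%, 0.0102% and 0.0520% of the heavy constant reads in WT replicates 1 and 2 and HET replicate 1.

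**Figure D1:**
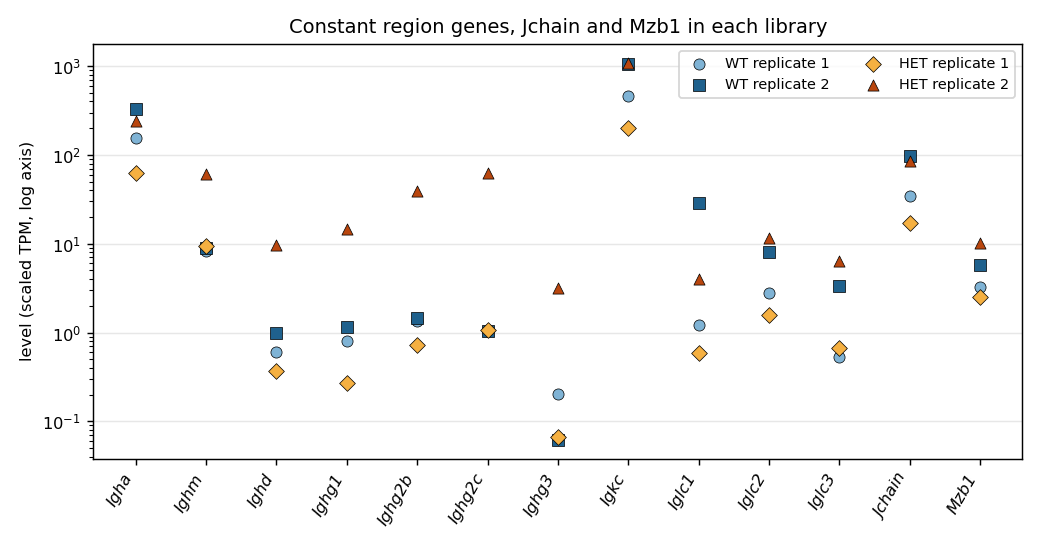
Level of 7 heavy constant genes, 4 light constant genes, Jchain and Mzb1 in each library (scaled TPM, log axis), 1 point per library. HET replicate 2 is far above the other 3 libraries for Ighm, Ighd and the 4 IgG genes, while for Igha, Igkc and Jchain it lies close to WT replicate 2.

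**Figure D2:**
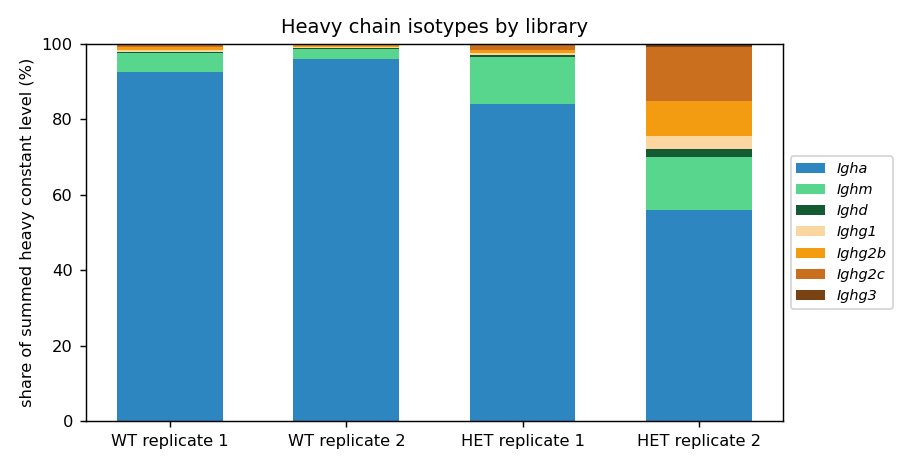
Share of each heavy constant gene in the summed heavy constant level of a library (%), 1 stacked bar per library. Igha takes 92.7%, 96.1% and 84.0% in the first 3 bars and 56.0% in HET replicate 2, where the IgG genes take 27.7%.

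Secreted IgA and IgM form polymers held by the J chain, a small protein encoded by Jchain, and the heavy chains bind it through a tailpiece whose cysteine stands just before the final tyrosine. The ends of the secreted coding sequences are shown because they carry this difference between the isotypes. They are the last 60 coding bases, minus strand of mm10, 5′ to 3′, from GENCODE M21 transcripts, with the cysteine codon before the tyrosine codon and the stop in capitals where the search found it.
Igha (chr12:113258768-113258827): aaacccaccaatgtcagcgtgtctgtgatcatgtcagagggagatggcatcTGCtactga
Ighm (chr12:113420867-113420926): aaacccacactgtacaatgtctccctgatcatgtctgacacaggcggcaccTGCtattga
Ighg2b (chr12:113306389-113306448): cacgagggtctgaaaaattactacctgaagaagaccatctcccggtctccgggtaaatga
Ighg1 (chr12:113328976-113329035): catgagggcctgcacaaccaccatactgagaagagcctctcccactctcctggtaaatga
Igha and Ighm, with 68532 and 5547 reads in all, hold the cysteine codon just before the final tyrosine codon, and both IgG genes shown do not.

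Jchain had the library order of Igha, not that of the IgG genes. Jchain (chromosome 5, 88519809 to 88527891) was at 34.7 and 96.5 scaled TPM in WT and at 17.1 and 85.1 in HET, from 2545, 7813, 1295 and 7493 reads. HET replicate 2 lay below WT replicate 2, as for Igha. The ratio of Jchain to Igha was 0.222 and 0.290 in WT and 0.270 and 0.350 in HET, so it moved less than 2-fold while Igha itself was 3.85 times higher in HET replicate 2 than in HET replicate 1. Against Igha and Ighm summed, the ratio was 0.210 and 0.282 in WT and 0.235 and 0.280 in HET. Mzb1, which encodes a chaperone of the endoplasmic reticulum that helps B and plasma cells secrete antibody, was at 3.30 and 5.70 scaled TPM in WT and at 2.49 and 10.3 in HET. Its order over the libraries was that of the total of the constant genes.

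Kappa was the light chain of nearly all immunoglobulin RNA. Igkc, the kappa constant gene (chromosome 6, 70726435 to 70726966), was the member with the highest mean level, at 466 and 1071 scaled TPM in WT and at 202 and 1090 in HET. It took 99.0% and 96.4% of the light constant level in WT and 98.6% and 98.0% in HET. Iglc2 and Iglc3, the constant genes of lambda 2 and lambda 3, were highest in HET replicate 2, at 11.7 and 6.39 scaled TPM.

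The exception was lambda 1 in WT replicate 2. Iglc1, the lambda 1 constant gene (chromosome 16, 19061618 to 19062071), was at 1.21 and 28.7 scaled TPM in WT and at 0.585 and 3.97 in HET, from 16, 420, 8 and 63 reads. Iglv1, the lambda V segment used with it, was at 1.32 and 15.3 in WT and at 0.764 and 5.34 in HET, and Iglj1 had 39 reads in WT replicate 2 and 0 in the other 3 libraries. V, J and constant gene of lambda 1 were thus highest in the same library. Iglc1 made up 71.7% of the lambda constant level there, as against 26.6% in WT replicate 1, 20.8% in HET replicate 1 and 18.0% in HET replicate 2.

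A J segment joins the V region to the constant gene, and its first bases close the antigen-binding loop. In the protein that loop is followed by the stretch tryptophan (heavy) or phenylalanine (light), glycine, any residue, glycine. The J segments are shown because 1 of the kappa segments lacks the codon for the first glycine. They are whole segments, 5′ to 3′, from GENCODE M21 transcripts on mm10, on the plus strand for kappa and the minus strand for heavy and lambda, with the 12 bases of that stretch in capitals.
Ighj1 (chr12:113429781-113429833): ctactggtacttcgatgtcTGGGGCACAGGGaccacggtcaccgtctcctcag
Ighj2 (chr12:113429468-113429515): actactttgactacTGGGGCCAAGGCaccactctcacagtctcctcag
Ighj3 (chr12:113429085-113429132): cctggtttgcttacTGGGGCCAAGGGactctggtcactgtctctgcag
Ighj4 (chr12:113428514-113428567): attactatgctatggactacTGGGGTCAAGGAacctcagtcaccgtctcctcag
Igkj1 (chr6:70722562-70722599): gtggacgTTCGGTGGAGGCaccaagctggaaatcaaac
Igkj2 (chr6:70722916-70722954): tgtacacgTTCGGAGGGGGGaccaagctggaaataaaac
Igkj3 (chr6:70723223-70723260): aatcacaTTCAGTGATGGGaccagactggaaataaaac
Igkj4 (chr6:70723548-70723585): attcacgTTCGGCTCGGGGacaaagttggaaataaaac
Igkj5 (chr6:70723886-70723923): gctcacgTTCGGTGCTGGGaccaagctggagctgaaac
Iglj1 (chr16:19063225-19063262): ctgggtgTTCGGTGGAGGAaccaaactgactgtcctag
The motif searched on the coding strand was TTC in light or TGG in heavy J segments, with the glycine codon GGN right after it and again after 1 further codon, and 9 of the 10 segments held it. Igkj3, long known as a nonfunctional segment of the mouse, did not: its second capital codon is agt in place of a glycine codon.

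Igkj3 had 0 and 2 reads in WT and 1 and 16 reads in HET, 19 in all, while the other 4 kappa J segments had 555 to 1317 reads each. Its share of the kappa J reads was 0.882% in HET replicate 2 (Wilson 95% interval 0.544% to 1.43%), and a count of 0, taken as up to 3 reads, allows up to 0.557% in WT replicate 1 (Wilson upper limit 0.708%). Igkj1 had the largest share of the kappa J level in WT replicate 1 and in both HET libraries, at 42.0%, 34.9% and 36.1%, whereas in WT replicate 2 it took 27.0%, and Igkj2 28.6%. Igkj4 took the smallest share of these 4 segments in each library, between 6.75% and 17.5%. The functional kappa J segments were thus all in use in each library.

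Among the heavy J segments Ighj3 led the level in WT replicate 1 and both HET libraries (31.6%, 34.0% and 36.2%) and Ighj4 in WT replicate 2 (40.3%). By reads Ighj2 led in WT replicate 1 and both HET libraries, with 35.6%, 34.4% and 35.2%. The authors' exon length for Ighj2 is 100 bases, against 48 in the transcript shown above, so its level per length is lower than its reads alone would give. How reads that run from a J segment into its neighbours were assigned is not stated in the labels or file headers.

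V segments supply most of the binding site, and each B cell clone uses 1 heavy and 1 light V segment. Most V members were seen in each library: 96 and 105 of the 106 heavy members had a read in WT and 87 and 106 in HET, and of the 99 kappa members 94 and 99 in WT and 88 and 99 in HET. These counts are partly fixed by the choice of members, which used the reads of the same libraries. That choice left out 79 of 185 heavy and 61 of 160 kappa V segments. The libraries with fewer members seen were the ones with fewer V reads, 3116 in WT replicate 1 and 1838 in HET replicate 1, against 8807 in WT replicate 2 and 10240 in HET replicate 2. Use was spread widely. The effective number of heavy V segments (the number of equally used segments that would give the same Shannon entropy) was 49.9 and 55.8 in WT and 54.2 and 64.5 in HET. For kappa it was 54.8 in both WT libraries and 48.2 and 57.3 in HET. HET replicate 2 had the highest number in both loci, also after each library was thinned to the V reads of the smallest one, at 59.8 of heavy and 55.8 of kappa segments, against 48.6 to 54.2 and 48.2 to 54.9 in the other 3 libraries.

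The V segments that led in a library, and Ighv5-9, which came next to the leader in WT replicate 1, are shown by their last 60 bases, which run through the conserved cysteine into the binding loop (5′ to 3′, GENCODE M21 transcripts on mm10, minus strand for Ighv, Igkv10-96 and Iglv1, plus strand for Igkv16-104 and Igkv9-120). Capitals mark the cysteine codon.
Ighv1-14 (chr12:114646572-114646631): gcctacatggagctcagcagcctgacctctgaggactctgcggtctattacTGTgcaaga
Ighv5-9 (chr12:113661769-113661828): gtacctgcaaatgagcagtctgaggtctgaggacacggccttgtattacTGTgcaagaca
Ighv3-6 (chr12:114288152-114288211): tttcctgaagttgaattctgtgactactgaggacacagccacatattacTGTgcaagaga
Igkv10-96 (chr6:68631963-68632022): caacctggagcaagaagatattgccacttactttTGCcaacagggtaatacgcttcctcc
Igkv16-104 (chr6:68426013-68426072): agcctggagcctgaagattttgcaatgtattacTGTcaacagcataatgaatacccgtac
Igkv9-120 (chr6:68050397-68050456): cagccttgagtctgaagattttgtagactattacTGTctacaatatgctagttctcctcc
Iglv1 (chr16:19085017-19085076): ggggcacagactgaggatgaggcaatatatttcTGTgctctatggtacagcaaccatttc
Their order differed between the libraries.

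Ighv1-14 (chromosome 12, 114646572 to 114647056) led the heavy V level in 3 libraries, with 7.97% and 9.41% in WT and 6.43% in HET replicate 1. In HET replicate 2 it took 3.39%, and Ighv3-6 led with 6.20%. Ighv1-14 is annotated as a V pseudogene in GENCODE M21, yet it had 694 reads, the most of any heavy V member. Of its 50-base windows 13.3% also occur in another immunoglobulin transcript of that annotation. A pseudogene cannot give a whole antibody, and reads of a close V gene that differs from the reference cannot be told apart from its own here, as the strain is not given. In all, 17 heavy pseudogenes took 13.5% and 17.6% of the heavy V level in WT and 15.7% and 9.72% in HET, and without Ighv1-14 5.54% and 8.22% in WT and 9.27% and 6.33% in HET. The 10 kappa pseudogenes took between 0.699% and 3.48%.

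Ighv3-6 (chromosome 12, 114288152 to 114288582) was at 5.19 and 14.1 scaled TPM in WT and at 3.13 and 20.7 in HET, in the library order of the summed heavy V level. Ighv5-9 (113661769 to 113662293) differed from that order in WT, at 10.2 and 9.74 scaled TPM, while HET had 4.05 and 14.2. By family, the 57 Ighv1 members took 38.8% and 42.9% of the heavy V level in WT and 38.1% and 43.9% in HET, and the 12 Ighv5 members 22.0% and 17.0% in WT and 21.3% and 18.1% in HET.

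Among kappa V segments the leader changed from library to library. Igkv10-96 (chromosome 6, 68631963 to 68632442) led in WT replicate 2 with 6.07% and in HET replicate 2 with 6.46%. Igkv16-104 (68425575 to 68426072) led in WT replicate 1 with 5.76% but took 0.373% in HET replicate 1, where it had 4 reads as against 96, 191 and 170 in WT replicates 1 and 2 and HET replicate 2. Igkv9-120 (68049983 to 68050456) led in HET replicate 1 with 8.60%. It was at 3.20 and 18.1 scaled TPM in WT and at 8.09 and 13.6 in HET. The 9 Igkv6 members formed the leading kappa family, with 22.3% and 16.1% in WT and 16.9% and 16.2% in HET.

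Some V segments took a much larger share in a single library than in the rest. The following examples were picked after their values were seen, among segments with at least 100 reads. Ighv1-9 had 163 of its 173 reads in HET replicate 2, where it took 3.98% of the heavy V level, against at most 0.216% elsewhere. Igkv4-50 had 159 of 192 reads in HET replicate 2, where it took 2.87% of the kappa V level, against at most 0.533% elsewhere. Igkv4-90 had 80 of 101 reads in WT replicate 2, where it took 1.64%, against at most 0.401% elsewhere. Both of these libraries had more V reads than the others, which raises such read counts. Their 50-base windows were shared with other immunoglobulin transcripts for 0.662% of Ighv1-9, 2.31% of Igkv4-50 and 0% of Igkv4-90. Over all V members the share of such windows had a median of 20.8% for heavy and 21.4% for kappa, so reads of many other segments are open to being split between near copies.

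**Figure D3:**
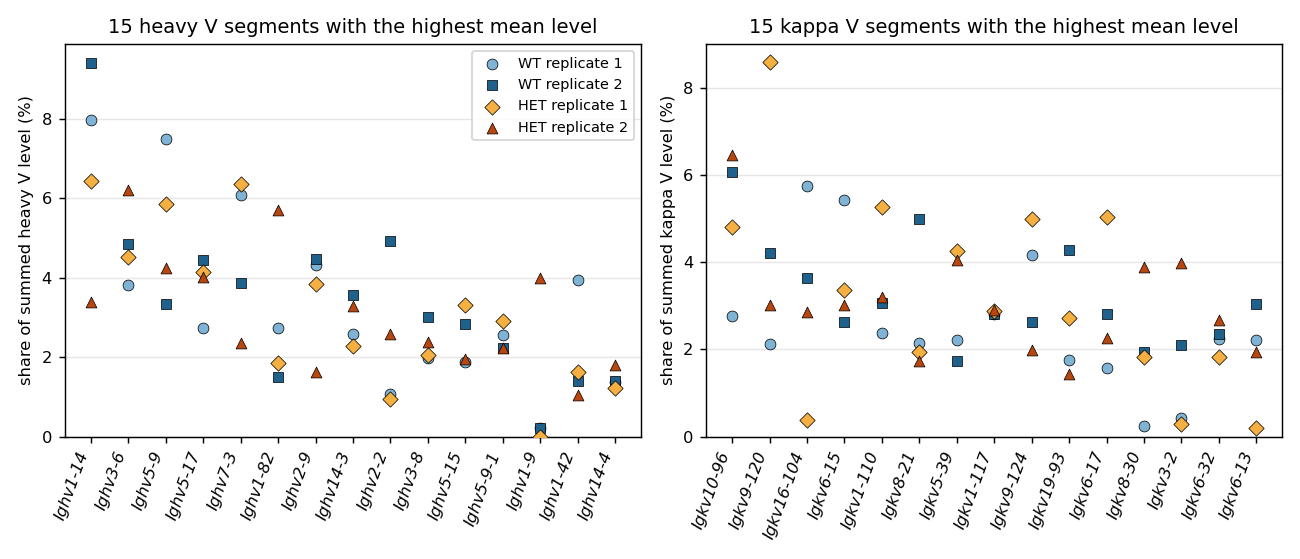
Share of the 15 heavy (left) and 15 kappa (right) V segments with the highest mean level in the summed V level of their locus (%), 1 point per library. Ighv1-14 lies between 6.43% and 9.41% in 3 libraries and at 3.39% in HET replicate 2, and Igkv16-104 is at 0.373% in HET replicate 1.

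Shares of single V segments were alike but not the same between libraries. Across the 106 heavy V members, the Spearman correlation of shares between pairs of libraries ran from 0.59 to 0.71, and across the 99 kappa members from 0.47 to 0.75. The pair of WT libraries was at 0.69 and 0.58, and the pair of HET libraries at 0.60 and 0.69, within the range of the pairs across genotypes. These are descriptions across segments, which share the depth of their library, their length and their sequence with near copies. By position, the 36 heavy V members nearest to the J segments, 144 to 859 kb away, took 52.8% and 50.3% of the heavy V level in WT and 49.5% and 46.9% in HET. The farthest 35, 1562 to 2581 kb away, took 15.8% and 17.8% in WT and 18.5% and 23.9% in HET. In the kappa locus the middle 33 members took the smallest share in each library, from 16.9% to 23.4%.

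Between HET and WT no member was called. Of the 232 members 150 passed the filter on low values, and limma called 0 of them at an adjusted p below 0.1 (0.00895% of all 22356 genes tested were called), while limma-voom called 0 as well. The 82 members that were not tested were 42 heavy, 35 kappa and 2 lambda V segments, Igkj3, Iglj1 and Ighe. At an unadjusted p under 0.05 there were 6 members, 4.0% of those tested, where 7.26% of all genes were, and limma-voom had 7. The log2 fold change was above 0 for 53 members, or 35.3%, against 51.1% of all genes tested. Without scaling of the TPM it was above 0 for 70 members, or 46.7%, as that setting moved the median of all genes to 0.20. The genotypes did not overlap with HET higher for 6 (4.0%, against 21.8% of all genes) and lower for 11 (7.33%, against 23.1%). Most members thus had overlapping groups. The median log2 fold change was -0.24 over the members and 0.0067 over all genes tested, and the median standard error was 0.93 over the members and 0.17 over all genes tested. With 2 libraries a genotype, the smallest two-sided p of an exact permutation test of a single gene is 0.333.

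The 6 members with an unadjusted p under 0.05 were all V segments. Ighv1-47 was at 0.0864 and 0.157 scaled TPM in WT and at 0.920 and 1.51 in HET, from 1, 2, 11 and 21 reads. Its log2 fold change was 1.45, with a standard error of 0.21 and a limma adjusted p = 0.610. Igkv5-37 was at 4.39 and 2.77 in WT and at 0.370 and 0.955 in HET (log2 fold change -1.83). In neither did the groups overlap, and neither passed the adjustment over all genes. The other 4 were Ighv6-6, with a log2 fold change of 1.11, and Ighv7-4, Ighv1-23 and Igkv17-127, with -0.60, -1.04 and -1.01 (limma adjusted p = 0.622 for each of these and for Igkv5-37).

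What the test found turned on which HET library was kept. Without HET replicate 1, limma called 7 members higher in HET, 4.64% of the 151 tested, where 0.242% of all genes were called higher, and 0 lower, where 0.0365% were. They were Ighg2c (log2 fold change 5.36), Ighg2b (4.39), Ighg1 (3.38), Ighg3 (2.54), Ighm (2.73), Ighd (2.98) and the V segment Ighv1-82, and 127 of the 151 members had a fold change above 0. Without HET replicate 2 limma called 10 members lower, 9.17% of the 109 tested, where 0.291% of all genes were called lower, and 0 higher, where 0.157% were. These 10 were all V segments, Igkv17-127, Igkv16-104, Igkv12-46, Igkv5-37, Ighv1-53, Ighv1-26, Ighv1-42, Igkv6-15, Ighv5-9 and Ighv3-4, and 7 of 109 members had a fold change above 0. In each of these fits a single HET library stands for its genotype and is assumed to vary as the WT libraries do. Without WT replicate 1 or WT replicate 2 limma called 0 members, with 9 and 7 at an unadjusted p under 0.05 (6.04% and 6.31% of those tested, against 2.46% and 11.4% of all genes). Of all genes 0% were called without WT replicate 1, and without WT replicate 2 0.0318% were called higher and 0.00454% lower.

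With all 4 libraries the heavy constant genes other than Igha had log2 fold changes of 2.70 for Ighg2c (standard error 2.08, limma adjusted p = 0.677), 1.88 for Ighg2b, 1.23 for Ighg1, 1.20 for Ighg3, 1.43 for Ighm and 1.21 for Ighd. Without HET replicate 2 those of Ighg2b, Ighg1 and Ighd were -0.62, -0.91 and -0.55. By library, 6 of the 7 heavy constant genes tested were highest in HET replicate 2. Over the 150 members, 77 were highest in HET replicate 2 (27.4% of all genes tested were), 62 in WT replicate 2 (13.9% of all genes tested were) and 117 lowest in HET replicate 1 (23.6% of all genes tested were). The 97 genes of the authors' deposited table of HET against WT hold 0 of the members.

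**Figure D4:**
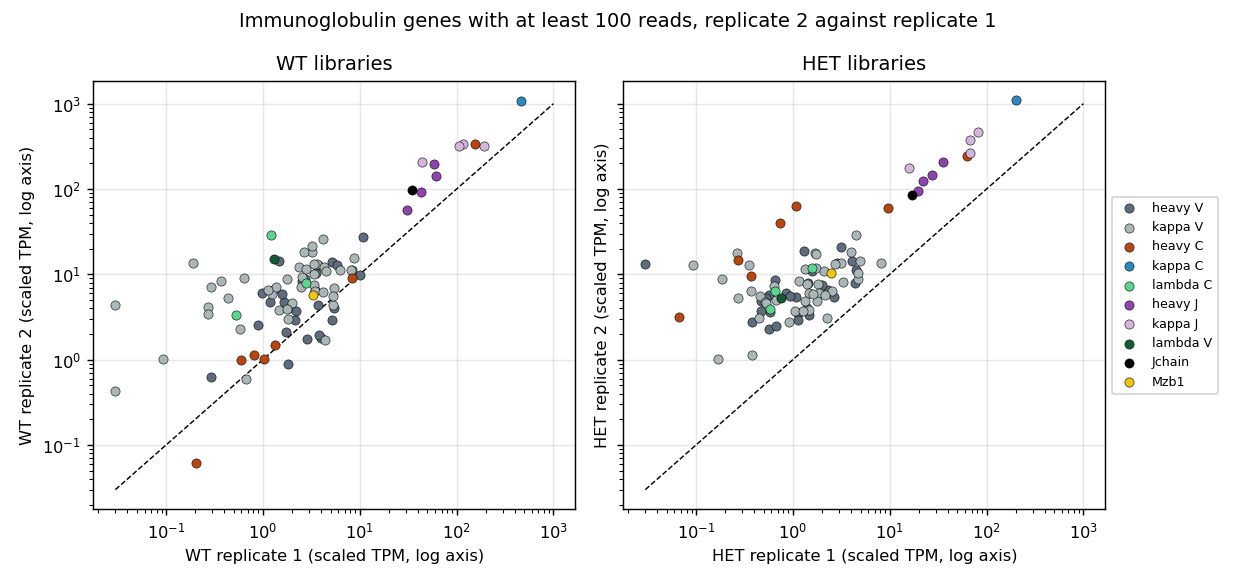
Level of the 94 members with at least 100 reads in replicate 2 against replicate 1 of the WT (left) and HET (right) libraries (scaled TPM, log axes), with values below 0.03 drawn at 0.03 and a dashed line of equal levels. Most points lie above the line in both panels, and in the HET panel the IgG genes lie farther above it than most V segments. Some V segments lie farther still, Ighv1-9 and Igkv4-50 among them.

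Markers of B cells moved with the IgG, IgM and IgD genes. All 17 genes of a B cell list, Ighd among them, were highest in HET replicate 2, and their summed level was 6.30 and 10.1 scaled TPM in WT and 7.17 and 58.9 in HET. Fcer2a, which encodes the low-affinity IgE receptor of mature B cells, had 2 and 21 reads in WT and 5 and 366 in HET. Of the 16 tested, 16 had a log2 fold change above 0 and limma called 0, with 0 at an unadjusted p under 0.05. The separation was between HET replicate 2 and the rest, not between the genotypes. Of 16 T cell genes 15 were highest in the same library, with a summed level of 35.6 and 34.1 in WT and 16.7 and 51.4 in HET. Trac, a T cell receptor constant gene and the exception, gave 27.5 and 25.7 of that sum in WT and 8.52 and 20.2 in HET. It was the larger part of the sum in each library but HET replicate 2. Limma called 0 of these 16, with 0 at an unadjusted p under 0.05. The macrophage and dendritic cell list had another order, with a summed level of 424 and 438 in WT and 779 and 621 in HET, and limma called 0 of its 14 genes, with 10 at an unadjusted p under 0.05.

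Some genes of lymph node vessels and follicles were also high in HET replicate 2. Glycam1, a mucin-like gene of lymph node high endothelial venules, had 0 and 1 reads in WT and 0 and 1989 in HET. Cxcl13, which encodes the chemokine that draws B cells into follicles, was at 0.119 and 0.540 scaled TPM in WT and at 0.346 and 6.21 in HET. Of the 9 genes measured of that list of 10, 6 were highest in HET replicate 2. Ccl19 was highest in HET replicate 1, at 0.727 scaled TPM against 0.527 in HET replicate 2. The summed level of the list was 85.5 and 86.9 in WT and 206 and 113 in HET, most of it from Clu, which kidney cells express too. Fat markers were also highest in HET replicate 2 for 7 of 8 genes, with a summed level of 266 and 416 in WT and 316 and 648 in HET. The part that such cells or tissue had in the IgG, IgM and IgD values of HET replicate 2 was not tested.

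Plasma cell markers had no common library order. Of 17 genes, the members Jchain and Mzb1 among them, 7 were highest in HET replicate 2, Mzb1 being 1 of these. The summed level was 297 and 336 scaled TPM in WT and 264 and 320 in HET. Jchain alone gave 34.7 and 96.5 of that sum in WT and 17.1 and 85.1 in HET. Xbp1, a secretory transcription factor gene of many cell types, was at 80.4 to 94.3. Creld2 was at 51.4 to 80.8 and Txndc5 at 60.3 to 75.4, and these genes with Xbp1 gave most of the sum in each library. Tnfrsf17, which encodes the plasma cell receptor BCMA, was at 0.379 and 1.30 in WT and at 0.081 and 0.666 in HET, from 9, 34, 2 and 19 reads. It thus had the library order of Igha, whereas Sdc1 and Derl3 of the same list were highest in HET replicate 1. Pou2af1, a B lineage co-activator of immunoglobulin promoters, was at 0.309 and 0.890 in WT and at 0.117 and 3.85 in HET. Limma called 0 of the 17, with 0 at an unadjusted p under 0.05. The red cell genes, summed, had the library order of Igha too, at 1227 and 2351 in WT and 849 and 1895 in HET, and 7 of 8 were lowest in HET replicate 1. The part of blood left in the kidneys was not tested.

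**Figure D5:**
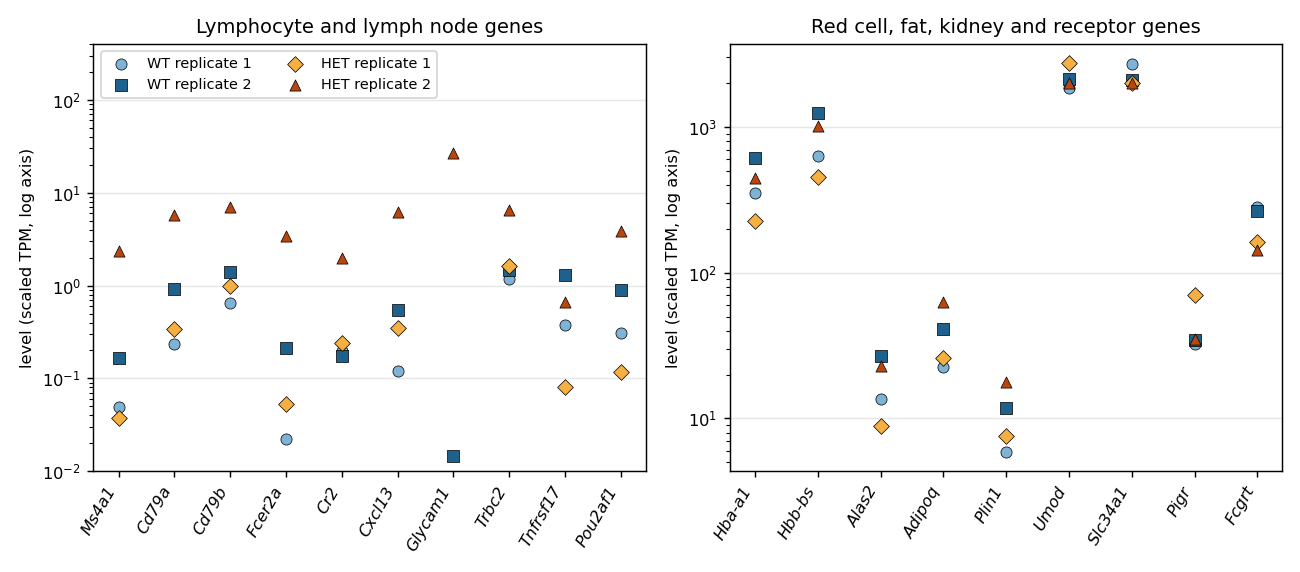
Level of lymphocyte and lymph node genes (left) and of red cell, fat, kidney and immunoglobulin transport genes (right) in each library (scaled TPM, log axes), 1 point per library, with a level of 0 not drawn. HET replicate 2 is highest for the B cell genes and for Glycam1, while Hba-a1 and Hbb-bs are highest in WT replicate 2.

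Genes that carry or bind antibody were compared as the partners of the members. Fcgrt, which encodes the neonatal Fc receptor that keeps IgG from breakdown and retrieves albumin in the proximal tubule, was at 280 and 265 scaled TPM in WT and at 163 and 143 in HET. Its groups did not overlap, with a log2 fold change of -0.83 and a limma adjusted p = 0.622, and it is among the 97 genes of the authors' deposited table. Pigr, the receptor that carries polymeric IgA across epithelia, was at 32.6 and 34.4 in WT and at 70.3 and 34.9 in HET, and was highest in HET replicate 1, the library with the least Igha. Fcmr, the IgM Fc receptor gene, was highest in HET replicate 2, at 4.16 against 0.316 to 0.631 in the other 3. Of the 11 genes tested in that list limma called 0, with 2 at an unadjusted p under 0.05.

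Ccl28, which encodes a chemokine that draws IgA plasma cells to mucosae, was at 139 and 170 scaled TPM in WT and at 45.6 and 126 in HET. It was lowest in HET replicate 1 and highest in WT replicate 2, as was Igha. Unlike Igha, Ccl28 was higher in WT replicate 1 than in HET replicate 2. Vcam1, an adhesion molecule gene, was at 2.83 and 3.37 in WT and at 5.76 and 5.95 in HET (log2 fold change 0.82). Of the 8 tested genes of attraction and survival limma called 0, with 1 at an unadjusted p under 0.05. The recombination gene Rag2 had 0 reads in all libraries, and Rag1 had 0 and 1 reads in WT and 2 and 0 in HET.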

How the data were processed

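Poly(A) RNA of 4 kidney libraries was analysed, 2 WT and 2 HET. The authors deposited TPM per gene with the summed exon length, from alignments marked unique on mm10, per the file headers. Their deposited comparison lists a mean normalized count (a signal), the log2 fold change and its error, a score (the test statistic) and p-values, raw and adjusted, for 97 genes, per the file headers. DESeq, DESeq2 and edgeR are named in the submitters' processing notes, without versions, and the sources used here name no aligner, counter or strand setting. Reads of overlapping or antisense genes cannot be told apart.

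TPM times length came out as whole multiples of the smallest step of a library, taken as 1 read, for 100% of values (tolerance 0.001 reads). These reads served for depth, shares, filters and limma-voom. TPM were scaled with trimmed mean of M values factors. Limma 3.58.1 (R 4.3.3, statmod 1.5.0) was run on log2(scaled TPM + 0.5), with trended variance and robust moderation, over 22356 genes. A gene needed 15 reads in all and, in 2 libraries, 10 or more at median depth. The Benjamini-Hochberg adjusted p was held to 0.1. Fold changes on this scale understate the change of low genes. The fit was tested on simulated data with a dispersion of 0.02 for every gene. It called 37 of 50 genes changed 2-fold and all 50 at each of 4-fold, 8-fold and 16-fold. It also called 44 unchanged genes, with 22289 genes tested. The wider spread of the members between pools was not simulated. Shares carry Wilson 95% intervals.

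Members and gene lists were chosen with earlier results of these data known. The text names every constant gene and J segment, Jchain, Mzb1, the leading V segments and the members with an unadjusted p under 0.05. The rule for names also covered further V segments and up to 4 genes of each list by smallest p. Most of these are given by counts only, and the list genes in the text were named after their values were seen. Values of some list genes are not reported here. Identifiers were matched to GENCODE M21, which holds 54165 of them. Alternatives were other pseudocounts (0.1 and 1), scalings and filters, limma-voom, a replicate block, other read minimums for members, thinned reads and leaving out each library. A search of V promoters was not run.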

Additional observations from a re-analysis of the deposited data

How the results depend on the processing

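The count of 0 members called was the same with both pseudocounts, both other scalings, both other filters, limma-voom and the replicate block. Leaving out 1 library gave from 0 to 10 called members, and from 7 to 127 members with a fold change above 0. That count was 95 of 232 with no filter on low genes and 15 of 50 with at least 1 read per 1000000 in 2 libraries, where fewer members were tested, and 48 to 70 in the other fits. Fold changes were recomputed for a set of 17 genes that is neither the B cell nor the plasma cell list and holds the members named below. Of 184 such values 10 reversed, all when a library was left out. Over the fits that each leave out a library, the fold change ran from -1.85 to 0.090 for Igha, from -1.80 to 0.63 for Igkc, from -1.73 to 0.55 for Jchain, from -3.75 to 0.36 for Iglc1, from -0.69 to 1.15 for Mzb1, from -0.62 to 4.39 for Ighg2b, from -0.91 to 3.38 for Ighg1 and from -0.55 to 2.98 for Ighd. The ends were the fits without HET replicate 2 and without HET replicate 1, except for Iglc1, where they were those without WT replicate 1 and without WT replicate 2. The sign also turned for Jchain without WT replicate 2 (0.13) and for Mzb1 without WT replicate 1 (-0.12).

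The libraries of a genotype share replicate numbers with those of the other. Deviations of same-numbered libraries correlated at 0.12 over 22356 genes, but there are only 2 pairs and the labels name no shared source. With the replicate as a block limma called 0 members, with 41 at an unadjusted p under 0.05 (27.3% of those tested, against 7.90% of all genes) and 53 with a fold change above 0.

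By recovered reads the Ighj2 share was 33.4% in WT and 34.8% in HET on average, against 20.5% and 21.4% by level, as its listed length is longer. With V segments of at least 100 reads only, the mean effective number was 22.2 (WT) and 22.9 (HET) of heavy and 32.6 and 32.9 of kappa segments, and the leading segment took 12.3% and 9.92% of heavy in WT and HET and 7.43% of kappa in WT, as fewer segments were counted. Thinned reads gave 6.56% for the leading heavy segment in HET, 6.36% for the leading kappa segment in WT and an effective number of kappa segments in WT of 53.5. That number was 54.6 by reads and 57.8 with all V segments of at least 1 read, and its WT libraries differ so little (54.8 in both) that such shifts exceed their spread. Leaving out each library, for totals, shares and evenness, was chosen after seeing the data. There the mean constant level ran from 639 to 1458 in WT and from 280 to 1545 in HET, and the mean share of Igha from 92.7% to 96.1% in WT and from 56.0% to 84.0% in HET. With 2 pools a genotype no spread beyond these pools can be known.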

Other observations

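Bcl6, a repressor gene of germinal centre B cells that other tissues express too, was at 7.56 and 22.8 scaled TPM in WT and at 8.13 and 29.3 in HET, so it was high in both libraries numbered 2. Its log2 fold change between HET and WT was 0.23. The surrogate light chain genes Vpreb1 and Igll1 were at 1.10 to 1.5 and at 0.123 to 0.302 scaled TPM in the 4 libraries. Vpreb3, a related gene, was at 0.120 and 0.434 in WT and at 0.386 and 1.03 in HET (log2 fold change 0.61), highest in HET replicate 2 as the B cell list was. These genes were picked after their values were seen.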
